A study of Homo sapiens with 6 samples.

Results

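The exons described here belong to 6 genes of the spectrin and protein 4.1 membrane skeleton, which are SPTAN1, SPTBN1, EPB41, EPB41L1, EPB41L2 and EPB41L3. An exon was taken when the middle exon of a deposited skipped-exon event lay inside 1 of these genes, on the same strand, by the GENCODE 29 annotation (hg38). This gave 52 exons from 75 events, of 40658 exons from 47986 events in all. SPTAN1 held 7 of the exons, EPB41 14, EPB41L1 12, EPB41L2 9 and EPB41L3 10, and none of the events analysed here lay in SPTBN1. No exon of the 52 overlapped a second gene.

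The cells were MDA-LM2, a derivative of the human breast cancer line MDA-MB-231 that was selected for metastasis to the lung, and their RNA was collected 48 h after transfection with small interfering RNA (siRNA). The siCtrl group (2 libraries) received control siRNA. The siSNRPA1 group (3 libraries) had SNRPA1 silenced, a protein of the U2 particle of the spliceosome, and the siSNRPB group (1 library) had SNRPB silenced, a protein of the Sm ring that spliceosomal particles share. The design names 3 siRNAs for SNRPA1 and 2 for SNRPB, and in 1 place SNRPB2, without tying a siRNA to a library. All groups are a transient knockdown or its control in 1 cell line. The libraries of a group were combined into 1 pool of values, so no value has a replicate, and both knockdowns were compared with the same siCtrl pool.

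Spectrin is a long rod made of alpha and beta chains that pair side by side and end to end. Proteins of the 4.1 family bind spectrin and actin at the ends of the rods and, through a FERM domain, bind membrane proteins, so that the network holds the membrane in shape. The network is best known from the red cell, and other cells use SPTAN1, SPTBN1 and the 4.1 relatives. Transcripts of both families are known for many short cassette exons, which change a stretch of the protein without shifting its reading frame.

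Of the 52 exons, 37 were coding throughout, 11 were partly coding, 3 were untranslated and 1 lay in a noncoding transcript. Lengths ran from 15 to 3023 nt with a median of 103.5 nt, and 42 lengths were multiples of 3. The sequences of 4 coding exons are shown: 3 short cassettes that passed, and the EPB41 exon that matches that of EPB41L2. Each is the plus sense of the spliced transcript from 5′ to 3′, taken from the GENCODE 29 transcripts (hg38), with the skipped exon in capitals and 30 nt of each neighbouring exon in lower case.
SPTAN1 60-nt exon: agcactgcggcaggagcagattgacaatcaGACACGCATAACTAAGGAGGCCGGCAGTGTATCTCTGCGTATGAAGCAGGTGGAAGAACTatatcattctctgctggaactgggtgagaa
SPTAN1 15-nt exon: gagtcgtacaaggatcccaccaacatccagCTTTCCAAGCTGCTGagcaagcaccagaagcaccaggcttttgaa
EPB41L2 63-nt exon: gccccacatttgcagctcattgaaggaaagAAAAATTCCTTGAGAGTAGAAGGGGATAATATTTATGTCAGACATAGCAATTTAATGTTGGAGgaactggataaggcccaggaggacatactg
EPB41 63-nt exon: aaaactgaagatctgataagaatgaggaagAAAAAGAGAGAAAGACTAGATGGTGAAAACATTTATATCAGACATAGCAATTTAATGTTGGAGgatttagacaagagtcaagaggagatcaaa

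The 60-nt exon lies at chr9:128592983-128593042 on the plus strand and is exon 22 of 57 in transcript SPTAN1-223. It adds 20 codons, and its GC content was 51.7%. The 15-nt exon lies at chr9:128609651-128609665, is exon 36 of the same transcript and adds codons 1587 to 1591. The 63-nt exon of EPB41L2 lies at chr6:130880144-130880206 on the minus strand, as exon 13 of 20 in EPB41L2-201 (codons 612 to 632). The 63-nt exon of EPB41 lies at chr1:29060422-29060484 on the plus strand, as exon 15 of 21 in EPB41-201 (codons 649 to 669). The 63-nt exons of EPB41L2 and EPB41 had the same base at 50 of 63 positions (79.4%), against 46.0% for the next best EPB41 exon placed the same way. Counted from the first base of the exon, bases 38 to 63 were identical in both, which is the 26-nt run TCAGACATAGCAATTTAATGTTGGAG that closes each exon. The best placements of the EPB41L2 exon in EPB41L1, EPB41L3 and SPTAN1 reached 42.9%, 47.6% and 42.9%.

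Reads that fitted an isoform were summed over 1 event per exon for each gene, and given per 1000000 such reads in the pool. Neighbouring exons can share reads, which then count for each of them. The values are a rough measure of transcription that leans on which exons are annotated. SPTAN1 had 406 in siCtrl, 329 in siSNRPA1 and 492 in siSNRPB, and EPB41L2 had 555, 645 and 799. EPB41 stood at 111, 113 and 113, EPB41L1 at 67.7, 47.3 and 65.1, and EPB41L3 at 14.1, 10.5 and 6.37. An event not listed in a pool added 0 reads, so a low value can come from events missing from that pool's list. In siSNRPB 5 of the EPB41L3 exons were not listed. In a bulk measurement like this, fewer cells that transcribe a gene and less RNA per cell cannot be told apart. The silenced genes were low in their own pools, SNRPA1 at 118 in siCtrl and 21.9 in siSNRPA1, and SNRPB at 247 in siCtrl and 30.6 in siSNRPB. Genes typical of the mesenchymal-like parent line were covered (CD44 at 3270 to 3540, FN1 at 281 to 398, AXL at 77.8 to 137). The 5 epithelial genes with an event (CDH1, ESRP1, ESRP2, ESR1, GRHL2) ran from 0 to 13.5, with CDH1 at 1.08 or below. The leukocyte gene PTPRC ran from 0 to 4.15 and the red cell gene EPB42 from 0 to 0.108. Their part in the results was not tested.

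An inclusion level is the authors' estimate of the share of transcripts that keep the exon, from 0 (always skipped) to 1 (always kept), and its interval is theirs too. Informative reads fit only inclusion or only exclusion of the exon, and the share of inclusion reads among them is given with a 95% Wilson interval. A test needed no fewer than 20 informative reads per pool and 5 reads of either class over the pair of pools. The test applied was Fisher's exact test, two-sided, with Benjamini-Hochberg adjustment over every tested exon in the files. An exon passed at an adjusted p below 0.05 when level and read share moved the same way and the level by 0.1 or more, and "rose" and "fell" are used for such exons only. The test compares the reads of 2 pools and not the conditions. All intervals cover counting error only and no spread between libraries or cultures, because no pool has a replicate. Reads without molecular identifiers are not independent molecules, so the intervals and p-values can understate even the counting error.

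In siSNRPA1 against siCtrl, 10 of the 52 exons could be tested, where 2 rose, 1 fell and 7 did not pass. The background over all 6459 tested exons was 17.0% called, with 4.18% higher and 12.8% lower in siSNRPA1. The rises were the 60-nt exon of SPTAN1 and the 63-nt exon of EPB41L2, and the fall was the 191-nt exon of EPB41L1. The median level difference of the 10 exons was 0.015, against -0.02 for all tested exons, and 5 had an unadjusted p below 0.05. The level was higher in siSNRPA1 in 8 of the 10, whereas 32.0% of all tested exons were higher.

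In siSNRPB against siCtrl, 7 exons could be tested, where 4 rose, 0 fell and 3 did not pass. The background was 21.3% called over 4244 tested exons, with 4.62% higher and 16.7% lower in siSNRPB. The rises were the 60-nt and 15-nt exons of SPTAN1, the 63-nt exon of EPB41L2 and the 411-nt exon of EPB41L1. No exon was lower at an unadjusted p below 0.05 either, since the 4 exons below that value were these rises. The median difference was 0.16, against -0.01 for all tested exons, and the level was higher in siSNRPB in 7 of 7, whereas 33.9% of all tested exons were higher. With so few exons tested, and chosen through their reads, these shares only describe them.

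Set directly against each other, the knockdowns differed in 3 of 7 tested exons, each lower in siSNRPA1 than in siSNRPB, and 4 did not pass. The background was 14.7% called over 5082 exons, with 8.28% higher and 6.38% lower in siSNRPA1. The 3 were the 60-nt and 15-nt exons of SPTAN1 and the 191-nt exon of EPB41L1. The median difference was -0.06, against 0 for all tested exons.

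**Figure D1:**
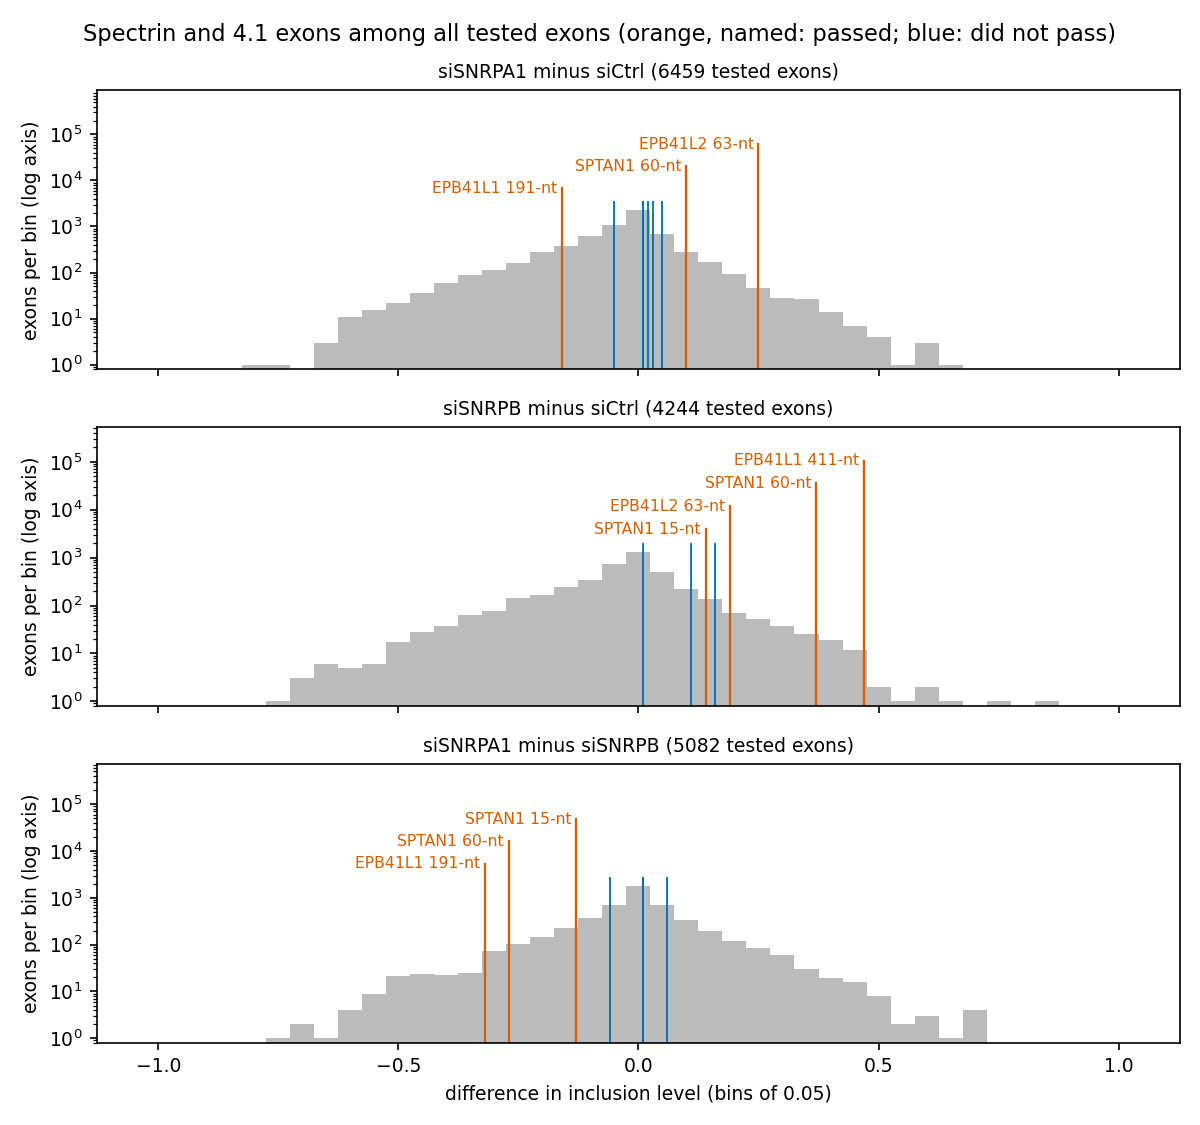
Histograms of the difference in inclusion level (x axis, bins of 0.05) over all tested exons of each comparison, with the number of exons per bin on a log y axis. Vertical lines mark the tested exons of the spectrin and 4.1 genes, orange and named where they passed and blue where they did not, and the 4 orange lines of siSNRPB minus siCtrl all lie on the side of higher inclusion.

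SPTAN1 encodes alpha-II spectrin, the alpha chain of nonerythroid cells. Its 60-nt exon adds a short insert beside the SH3 domain of the chain, a variant known as SH3i. The inclusion level of this exon was 0.46 in siCtrl (the authors' interval 0.42 to 0.49), 0.56 in siSNRPA1 (0.53 to 0.59) and 0.83 in siSNRPB (0.80 to 0.86). The 3 intervals did not overlap, and the order of the pools was the same in the reads. Inclusion reads were 418 of 737 in siCtrl (56.7%, 95% Wilson interval 53.1 to 60.2%), 621 of 947 in siSNRPA1 (65.6%, 62.5 to 68.5%) and 613 of 698 in siSNRPB (87.8%, 85.2 to 90.0%). The share in siSNRPB exceeded that in siCtrl by 31.1 percentage points (26.7 to 35.3), and the exon rose (Fisher's exact test, Benjamini-Hochberg adjusted p = 1.74e-37). In siSNRPA1 the share exceeded that in siCtrl by 8.86 points (4.17 to 13.5), and the exon rose by 0.10, right at the smallest difference that could pass (Fisher's exact test, adjusted p = 0.00197). The share in siSNRPA1 minus that in siSNRPB was -22.2 points (-26.0 to -18.3, Fisher's exact test, adjusted p = 4.79e-23). The rise in siSNRPA1 did not hold with the level taken as the share of inclusion reads (0.09) or with read counts divided by 2 (Fisher's exact test, adjusted p = 0.0641). Its upstream intron is 1357 nt and its downstream intron 1132 nt, and 4 annotated transcripts keep the exon while 3 hold the junction that skips it.

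The 15-nt exon of SPTAN1, a microexon, was nearly always skipped in siCtrl and siSNRPA1. Its level was 0.02 in siCtrl (0.01 to 0.05), 0.03 in siSNRPA1 (0.01 to 0.05) and 0.16 in siSNRPB (0.10 to 0.22). Inclusion reads were 3 beside 135 exclusion reads in siCtrl, 7 beside 208 in siSNRPA1 and 19 beside 77 in siSNRPB. The siSNRPB pool thus stood apart, with 19.8% inclusion reads (13.1 to 28.9%) against 2.17% (0.742 to 6.2%) and 3.26% (1.59 to 6.57%). The exon rose by 0.14 in siSNRPB against siCtrl (Fisher's exact test, adjusted p = 0.000116). It was lower in siSNRPA1 than in siSNRPB, with a level difference of -0.13 (Fisher's exact test, adjusted p = 9.34e-05). Between siSNRPA1 and siCtrl the shares differed by 1.08 points (-3.27 to 4.69) and the exon did not pass (Fisher's exact test, adjusted p = 0.856).

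The remaining tested exon of SPTAN1, 176 nt long and in a noncoding transcript (chr9:128627000-128627175), was skipped in nearly every read, at 0.00 in siCtrl, 0.02 in siSNRPA1 and 0.01 in siSNRPB. In the same order it had 2, 12 and 3 inclusion reads beside 265, 276 and 164 exclusion reads. The read shares of siSNRPA1 and siCtrl differed (Fisher's exact test, adjusted p = 0.0421), but the level difference of 0.02 was too small to pass. Among the 4 exons of SPTAN1 that could not be tested, the 126-nt coding exon had 708, 906 and 446 inclusion reads with 0 exclusion reads in siCtrl, siSNRPA1 and siSNRPB, at levels of 0.98, 0.99 and 0.87. The 51-nt and 56-nt exons, both partly coding, had 0 inclusion reads in every pool beside 25 to 85 exclusion reads. The 63-nt coding exon of SPTAN1 had 1 inclusion read in siSNRPA1, 0 in the other pools, and 2 to 9 exclusion reads.

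**Figure D2:**
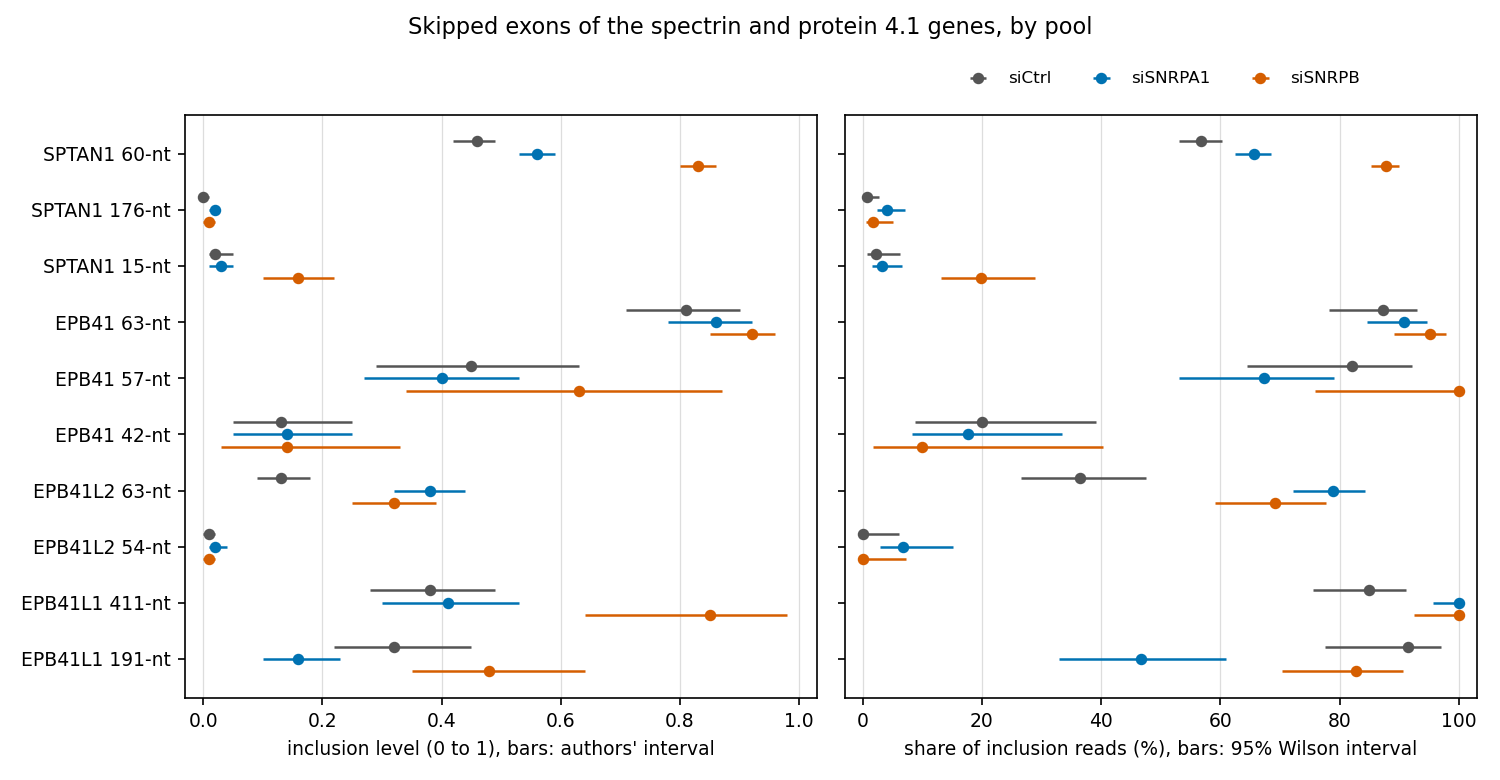
Inclusion level with the authors' interval (left, 0 to 1) and share of inclusion reads with its 95% Wilson interval (right, %) for the 10 tested exons in the siCtrl, siSNRPA1 and siSNRPB pools. The points of the SPTAN1 60-nt exon run in the order siCtrl, siSNRPA1, siSNRPB on both scales, and those of the EPB41L1 exons sit at lower levels than their read shares.

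EPB41 encodes the founding member of the 4.1 family, first described in red cells. Its 63-nt exon is the well-known cassette that opens the spectrin- and actin-binding domain and is kept late in red cell differentiation. In the event with the most informative reads, whose upstream exon is 57 nt, the level was 0.81 in siCtrl (0.71 to 0.90), 0.86 in siSNRPA1 (0.78 to 0.92) and 0.92 in siSNRPB (0.85 to 0.96). Reads for inclusion and exclusion were 69 and 10 in siCtrl, 118 and 12 in siSNRPA1, and 98 and 5 in siSNRPB. The exon was thus mostly kept in all pools, and the intervals overlapped. It did not pass in siSNRPA1 (share difference 3.43 points, -4.96 to 13.3, Fisher's exact test, adjusted p = 0.633) or in siSNRPB (7.8 points, -0.434 to 17.3, Fisher's exact test, adjusted p = 0.18).

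The same exon gave another result in a second annotated event, whose upstream exon is 209 nt. There the level was 0.63 in siCtrl and 0.98 in both siSNRPA1 and siSNRPB. Its reads were 54 for inclusion and 15 for exclusion in siCtrl, 105 and 0 in siSNRPA1, and 89 and 0 in siSNRPB, and by these reads the exon passed in both (Fisher's exact test, adjusted p = 9.06e-06 and 2.5e-05). In the authors' deposited table the Bayes factor of this event was 1000000000000 for both knockdowns, the highest value in those files. The events differ in the skip they count. The junction from the 209-nt exon straight to the 177-nt exon, which leaves out the 57-nt, 42-nt and 63-nt exons together, had 15 reads in siCtrl and 0 in each knockdown pool. The junction from the 57-nt to the 177-nt exon, which leaves out the 42-nt and 63-nt exons, had 10, 12 and 5. The triple skip was therefore read in siCtrl alone, and the shorter skip in all pools.

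As an alternative chosen after these values were seen, exclusion reads were summed over every distinct skip junction of an exon. The 63-nt exon of EPB41 then had inclusion shares of 73.4% in siCtrl, 90.8% in siSNRPA1 and 95.1% in siSNRPB. It passed in siSNRPA1 by 17.4 points (Fisher's exact test, adjusted p = 0.00558) and in siSNRPB by 21.7 points (Fisher's exact test, adjusted p = 0.000191). Over the files, 38123 of 38123 distinct skip junctions had the same reads in every event that listed them, and each junction was counted once. That total takes in junctions listed by a lone event, where the reads could not differ. Shared junctions were not counted apart, so the total does not show how many were compared between events.

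**Figure D3:**
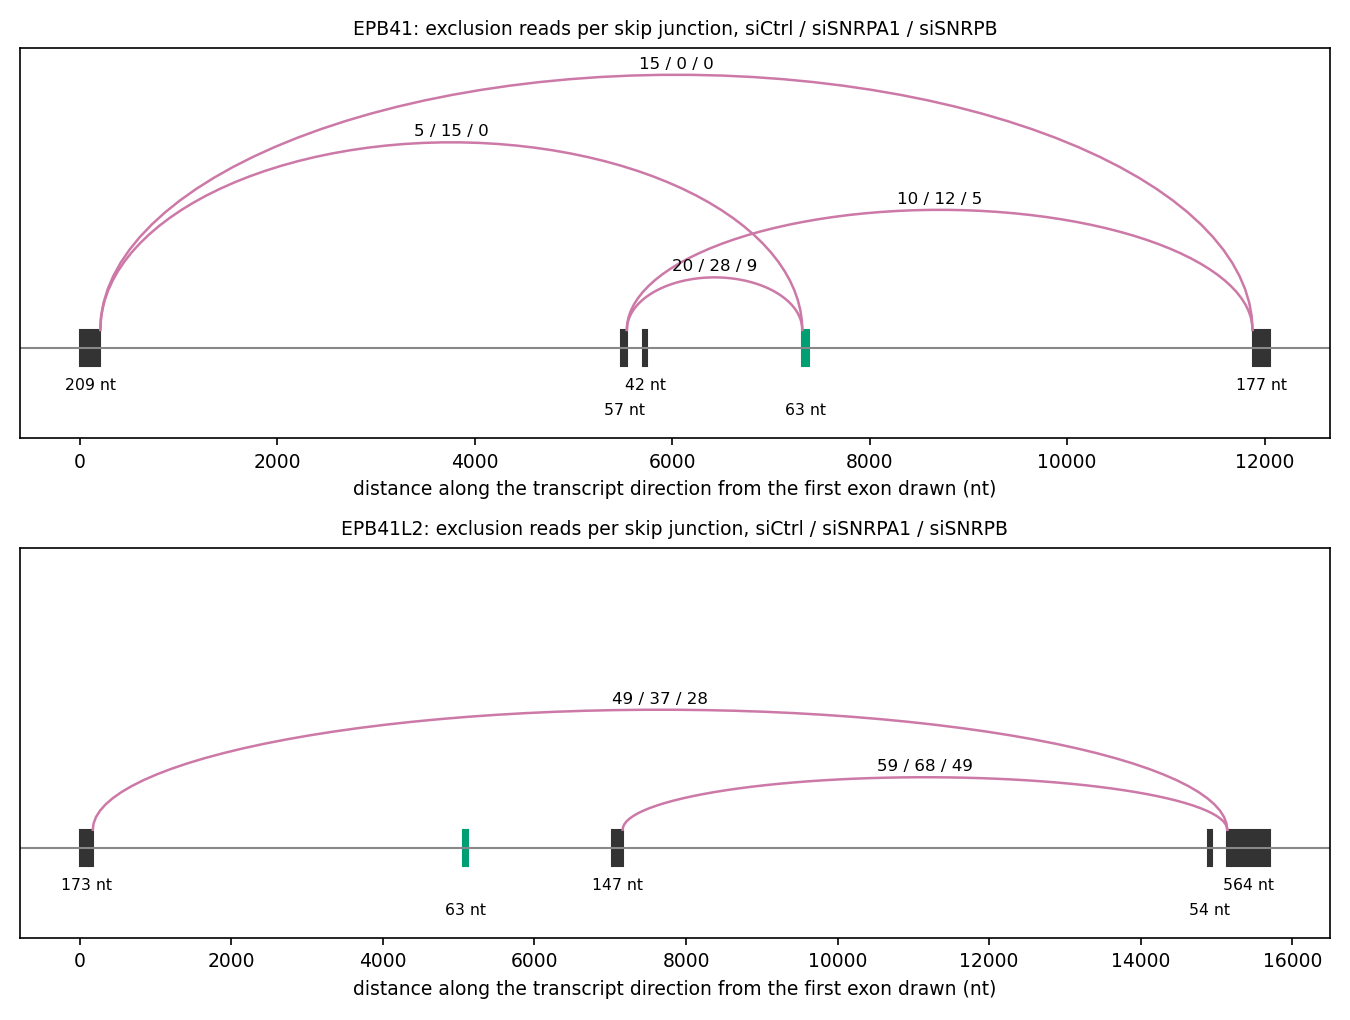
Exons (boxes, drawn to scale, the 63-nt exons in green) along EPB41 and EPB41L2 by distance in nt from the first exon drawn, with arcs for skip junctions and their reads in siCtrl, siSNRPA1 and siSNRPB. In EPB41 the longest arc has 15, 0 and 0 reads, and in EPB41L2 the arc over the 63-nt, 147-nt and 54-nt exons has 49, 37 and 28.

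The exons just upstream in EPB41 were less well covered. The 57-nt exon (chr1:29058589-29058645) stood at 0.45 in siCtrl, 0.40 in siSNRPA1 and 0.63 in siSNRPB, with 23, 31 and 12 inclusion reads beside 5, 15 and 0 exclusion reads. It did not pass in siSNRPA1 (Fisher's exact test, adjusted p = 0.311), and its share difference of -14.8 points had an interval from -32.3 to 6.52. With skip junctions summed, the alternative above, the direction turned, to 53.5% in siCtrl and 67.4% in siSNRPA1, and the exon again did not pass (Fisher's exact test, adjusted p = 0.322). In siSNRPB, where 0 of 12 reads allows an exclusion share of up to 25.0%, it could not be tested. The 42-nt exon (chr1:29058811-29058852) was mostly skipped, at levels of 0.13, 0.14 and 0.14. It had 5, 6 and 1 inclusion reads beside 20, 28 and 9 exclusion reads and did not pass in siSNRPA1 (Fisher's exact test, adjusted p = 1).

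Of the other 11 EPB41 exons, 5 had no exclusion read and at least 1 inclusion read, 1 had no inclusion read and 2 had no informative read in any pool. The 213-nt coding exon had 51, 136 and 47 inclusion reads and 0 exclusion reads in siCtrl, siSNRPA1 and siSNRPB, while its levels were 0.38, 0.60 and 0.45. The 102-nt coding exon had 27, 51 and 31 inclusion reads and 0 exclusion reads, at levels of 0.51, 0.96 and 0.90. The 213-nt exon in every pool, and the 102-nt exon in siCtrl, thus had levels far from 1 with no read for the skip. In the authors' deposited table the Bayes factor of the 102-nt exon was 4173129.37 for siSNRPA1 and 21.19 for siSNRPB.

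EPB41L2 encodes the broadly expressed 4.1 relative known as 4.1G. Its 63-nt exon, the one that matches the EPB41 cassette in sequence, had a level of 0.13 in siCtrl (0.09 to 0.18), 0.38 in siSNRPA1 (0.32 to 0.44) and 0.32 in siSNRPB (0.25 to 0.39). Reads for inclusion and exclusion were 28 and 49 in siCtrl, 138 and 37 in siSNRPA1, and 63 and 28 in siSNRPB. Skipping reads were in the majority in siCtrl and in the minority in both knockdown pools, with inclusion shares of 36.4% (26.5 to 47.5%), 78.9% (72.2 to 84.3%) and 69.2% (59.1 to 77.8%). The exon rose by 0.25 in siSNRPA1, with a share difference of 42.5 points (29.5 to 53.7, Fisher's exact test, adjusted p = 1.11e-08). It rose by 0.19 in siSNRPB, with a share difference of 32.9 points (17.8 to 45.9, Fisher's exact test, adjusted p = 0.00024). Between the knockdowns the shares differed by 9.63 points (-1.19 to 21.1) and the exon did not pass (Fisher's exact test, adjusted p = 0.211).

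The skip counted for this exon joins the 173-nt exon to the 564-nt exon and leaves out the 63-nt exon and the following 147-nt coding exon together. It also spans the 54-nt, 168-nt and 102-nt exons. It had 49, 37 and 28 reads in siCtrl, siSNRPA1 and siSNRPB. The junction from the 147-nt to the 564-nt exon had 59, 68 and 49, and a junction from the 63-nt exon straight to the 564-nt exon had 0 reads in every pool. A second event of the 63-nt exon, between a 36-nt and the 147-nt exon, had 64, 118 and 59 inclusion reads and 0 exclusion reads. With the inclusion reads of that event and exclusion reads summed over all skip junctions, an alternative added after the values were seen, the shares were 56.6%, 76.1% and 66.3%. On these reads the exon still passed in siSNRPA1, by 19.5 points (Fisher's exact test, adjusted p = 0.00585). In siSNRPB it no longer passed, with a difference of 9.65 points (Fisher's exact test, adjusted p = 0.297).

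The 147-nt exon of EPB41L2 had 151, 192 and 124 inclusion reads and 0 exclusion reads in its own event, at levels of 0.36, 0.26 and 0.31, and could not be tested. With skip junctions summed, its shares were 75.5%, 83.8% and 80.5% and it passed in neither knockdown against siCtrl (Fisher's exact test, adjusted p = 0.0969 and 0.43). The 54-nt coding exon (chr6:130870328-130870381) was nearly always skipped, with 0 of 59, 5 of 73 and 0 of 49 inclusion reads in siCtrl, siSNRPA1 and siSNRPB. A count of 0 allows an inclusion share of up to 5.08% in siCtrl and 6.12% in siSNRPB, and the exon did not pass in siSNRPA1 (Fisher's exact test, adjusted p = 0.14). The 564-nt coding exon had the most inclusion reads of any exon described here, 1731, 2973 and 1607 with 0 exclusion reads, and a level of 1.00 in every pool. In their own events, 7 of the 9 EPB41L2 exons had inclusion reads and no exclusion read. With skip junctions summed this no longer held for any of the 7. The 147-nt, 168-nt and 102-nt exons had exclusion reads in every pool. For the 99-nt, 123-nt, 564-nt and 315-nt exons the only skip reads were 2 in siSNRPB, from a junction over all 9 exons. The 102-nt exon had 18, 29 and 7 inclusion reads beside 108, 105 and 79 exclusion reads, with the 63-nt exon's skip among them. On those reads the 102-nt exon passed between the knockdowns, with a share 13.5 points higher in siSNRPA1 than in siSNRPB (Fisher's exact test, adjusted p = 0.0359), and did not pass against siCtrl.

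**Figure D4:**
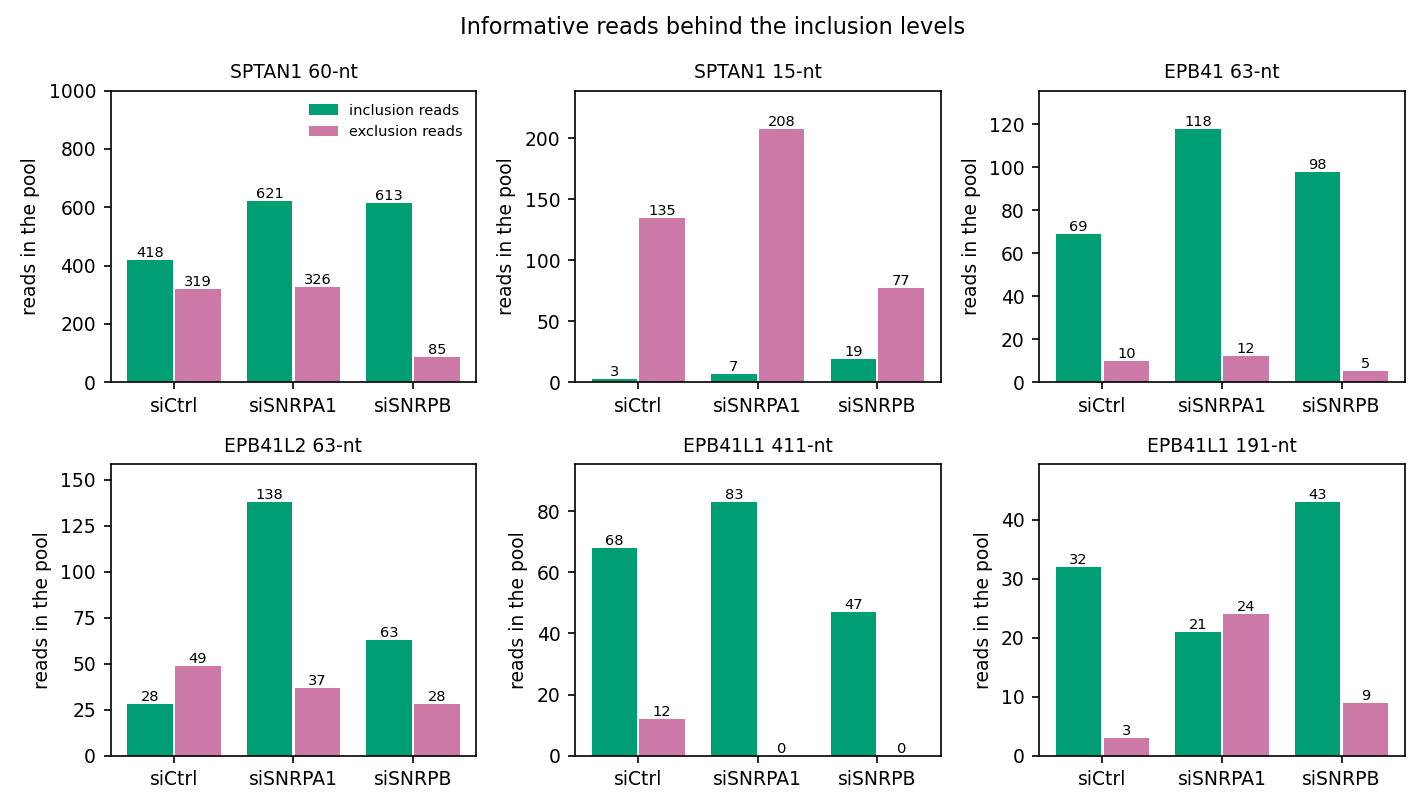
Inclusion reads (green) and exclusion reads (pink) in each pool for 6 exons, with the number of reads on the y axis, which starts at 0. In the SPTAN1 60-nt exon exclusion reads went from 319 in siCtrl to 85 in siSNRPB, and in the EPB41L2 63-nt exon inclusion reads outnumber exclusion reads in the knockdown pools and not in siCtrl.

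EPB41L1 encodes 4.1N, the form of the family best known from neurons. Its 411-nt coding exon (chr20:36209488-36209898, codons 557 to 693 of its transcript) had a level of 0.38 in siCtrl (0.28 to 0.49), 0.41 in siSNRPA1 (0.30 to 0.53) and 0.85 in siSNRPB (0.64 to 0.98). Reads for inclusion and exclusion were 68 and 12 in siCtrl, 83 and 0 in siSNRPA1, and 47 and 0 in siSNRPB. By level siSNRPB stood apart, while by reads both knockdown pools lacked the skip that siCtrl had. The counts of 0 allow an exclusion share of up to 3.61% in siSNRPA1 and 6.38% in siSNRPB. In siSNRPB the share was 15.0 points above siCtrl (5.22 to 24.4) and the exon rose (Fisher's exact test, adjusted p = 0.0136). In siSNRPA1 the share was also 15.0 points above siCtrl (7.38 to 24.4, Fisher's exact test, adjusted p = 0.00124), but the level difference of 0.03 did not pass. The rise in siSNRPB was lost with reads thinned to the smallest pool (Fisher's exact test, adjusted p = 0.0656) and with read counts divided by 2 (adjusted p = 0.201).

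The 191-nt exon of EPB41L1, which is partly coding (chr20:36173764-36173954), was the only tested exon to fall against siCtrl. Its level was 0.32 in siCtrl (0.22 to 0.45), 0.16 in siSNRPA1 (0.10 to 0.23) and 0.48 in siSNRPB (0.35 to 0.64). Reads for inclusion and exclusion were 32 and 3 in siCtrl, 21 and 24 in siSNRPA1, and 43 and 9 in siSNRPB. It fell by 0.16 in siSNRPA1, with a share difference of -44.8 points (-59.6 to -24.9, Fisher's exact test, adjusted p = 0.000406). It was also lower in siSNRPA1 than in siSNRPB, with a level difference of -0.32 (Fisher's exact test, adjusted p = 0.00225). In siSNRPB the level was 0.16 above siCtrl while the read share differed by -8.74 points (-22.4 to 7.18), and the exon did not pass (Fisher's exact test, adjusted p = 0.474).

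The fall of the 191-nt exon depended on which skip was counted. The event above counts a skip from a 147-nt exon, with 3, 24 and 9 reads in siCtrl, siSNRPA1 and siSNRPB. An event whose upstream exon is the 55-nt untranslated exon counts another skip, with 15, 1 and 0 reads, beside 16, 19 and 31 inclusion reads. In that event the difference was 0.05 in siSNRPA1 and 0.28 in siSNRPB, and the read shares of both differed from siCtrl (Fisher's exact test, adjusted p = 0.00866 and 7.86e-05). With all skip junctions summed the shares were 64.0%, 45.7% and 81.1%. The fall in siSNRPA1 was then lost (Fisher's exact test, adjusted p = 0.192), and the difference between the knockdowns was kept (Fisher's exact test, adjusted p = 0.00275).

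The 10 other EPB41L1 exons could not be tested. The 84-nt and 81-nt coding exons, which share their skip, each had 8 inclusion reads and 0 exclusion reads in siCtrl, 0 and 3 in siSNRPA1, and 0 and 6 in siSNRPB. Their levels went from 0.54 and 0.55 in siCtrl to 0.06 and 0.05 in siSNRPA1 and 0.05 in siSNRPB on those few reads. The 55-nt untranslated exon had 15 inclusion reads in siCtrl, 4 in siSNRPA1 and 0 in siSNRPB, at levels of 0.64, 0.18 and 0.08. A second event of this exon, with the 191-nt exon downstream, had another order of the pools, at 0.20, 0.63 and 0.31. That event had only 0, 3 and 0 inclusion reads and 2, 0 and 0 exclusion reads. The 36-nt coding exon had 0 inclusion reads beside 39, 20 and 4 exclusion reads.

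EPB41L3 encodes 4.1B, also known as DAL-1 for its loss in lung adenocarcinoma. Summed over 1 event per exon, it had 262, 287 and 73 reads that fitted an isoform in siCtrl, siSNRPA1 and siSNRPB. These were the fewest among the 5 genes with an event, and 5 of its exons were not listed in siSNRPB. None of its 10 exons could be tested, since 6 had no informative read in any pool and 4 had no exclusion read. The partly coding 3023-nt exon had 69, 64 and 5 inclusion reads and 0 exclusion reads, while its level was 0.51, 0.32 and 0.07. In the authors' deposited table this exon had a difference of -0.44 and a Bayes factor of 65424.3 in siSNRPB.

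Over all 52 exons, 42 could be tested in no comparison. Of these and the tested ones together, each in its own event, 19 had inclusion reads but no exclusion read in any pool, 7 had exclusion reads but no inclusion read, and 8 had no informative read at all. All 3 pools listed 47 of the exons, and 5 were not listed in siSNRPB. In siSNRPA1 against siCtrl, 28 exons had at least 20 informative reads in both pools, and 13 of them had no exclusion read, 3 no inclusion read and 2 fewer than 5 reads of a class.

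The inclusion level and the share of inclusion reads were not interchangeable in these genes. Of the exons with at least 20 inclusion reads and no exclusion read, 6 of 15 in siCtrl, 7 of 16 in siSNRPA1 and 4 of 12 in siSNRPB had a level under 0.5. Over all exons of the files, the share with such a level was 10.6% of 10625, 12.6% of 9559 and 9.98% of 8134. The read test uses only the inclusion and exclusion classes, whereas the deposited level can also draw on reads that fit both isoforms.

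**Figure D5:**
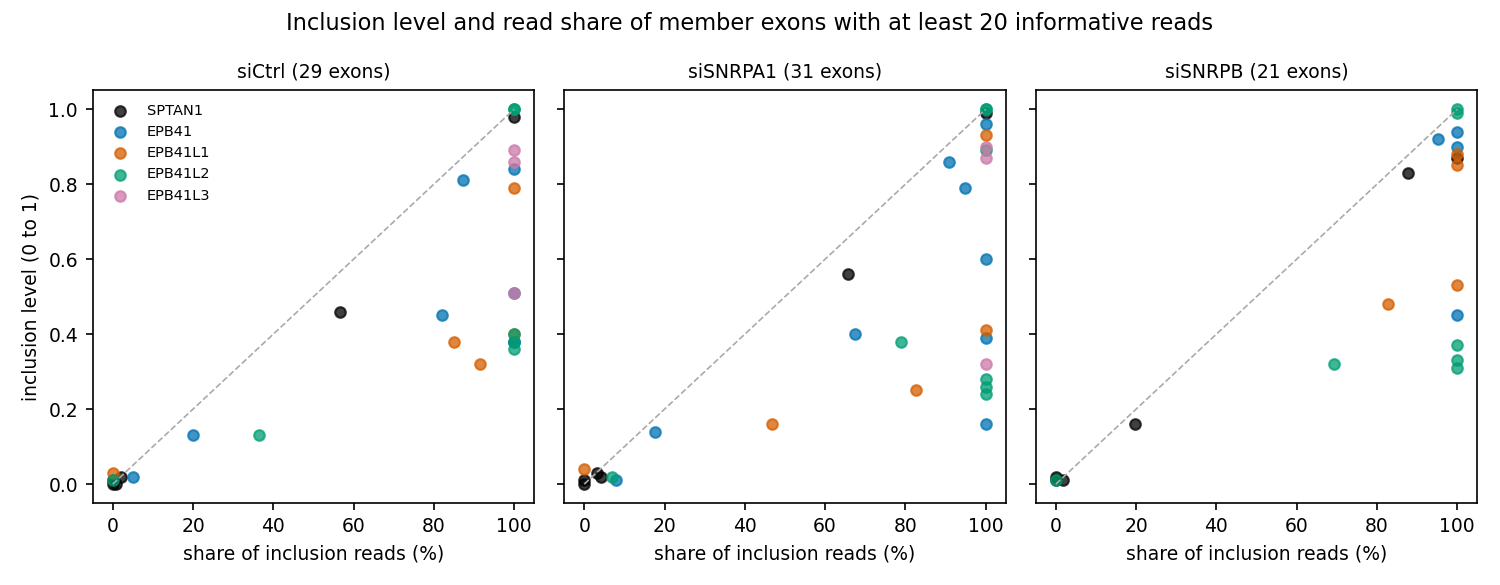
Inclusion level (y axis, 0 to 1) against the share of inclusion reads (x axis, %) for the exons with 20 or more informative reads in a pool, coloured by gene, with a dashed line where both are equal. Most points lie below the line, and the column of points at 100% spans levels from 0.36 in siCtrl, 0.16 in siSNRPA1 and 0.31 in siSNRPB up to 1.00.

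The authors' deposited table gives a Bayes factor for each event. A cut set here, of at least 10 with a difference of at least 0.1, was applied to the 1 event chosen per exon. It named 6 of 51 listed exons in siSNRPA1 and 9 of 47 in siSNRPB. Both counts include the EPB41L1 84-nt and 81-nt exons, which end at the same base and had the same reads in each pool. The same rule named 7.18% of 37799 exons in siSNRPA1 and 7.87% of 32213 in siSNRPB. Of the 6 in siSNRPA1, 2 also passed the read test and 4 could not be tested. Of the 9 in siSNRPB, 4 also passed and 5 could not be tested. In each comparison 2 of the named exons had no exclusion read in both pools. The fall of the EPB41L1 191-nt exon in siSNRPA1 had a Bayes factor of 5.39 in the authors' deposited table, under that cut. Other events of exons not named by the cut also passed it. The EPB41 63-nt exon did so in both knockdowns. In siSNRPA1 the EPB41L2 99-nt exon (0.31 to 0.15) and 123-nt exon (0.94 to 0.70 and 0.38 to 0.20) did, with 0 exclusion reads in both pools. In siSNRPB the EPB41L1 191-nt exon did, with upstream exons of 55 nt (0.11 to 0.39) and 105 nt (0.19 to 0.54).

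Partners of the network were examined as 2 further lists. Among 22 genes of membrane skeleton partners such as ankyrins, adducins and tropomodulins, 14 exons could be tested in siSNRPA1, where 2 rose and 1 fell, with a median difference of -0.025 against -0.02 for all tested exons. The shares over all tested exons in that comparison were 4.18% higher and 12.8% lower. A 6255-nt exon of ANK2, an ankyrin that ties spectrin to membrane proteins, rose by level from 0.16 to 0.32. Few reads skipped it, with 9 beside 266 keeping it for siCtrl, and 2 beside 445 for siSNRPA1. By reads the ANK2 exon was thus mostly kept in both pools, despite the low levels. The other rise was a 34-nt exon of DLG1, a scaffold protein that binds 4.1 proteins (0.03 to 0.25). The fall was a 99-nt exon of DLG1 (0.64 to 0.37). In siSNRPB 1 of 10 exons fell, the same DLG1 exon (0.64 to 0.41), and 0 rose, against 16.7% lower and 4.62% higher over all tested exons, with a median of -0.035 against -0.01. Between the knockdowns 1 of 9 passed, the 34-nt exon of DLG1, at 0.25 in siSNRPA1 and 0.03 in siSNRPB. Over all tested exons 8.28% were higher and 6.38% lower in siSNRPA1. The median difference of the list was -0.02, against 0 for all tested exons.

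Among 24 genes of other FERM domain proteins, 2 of 8 tested exons fell in siSNRPA1 and 0 rose, and 3 of 7 fell in siSNRPB and 0 rose. Over all tested exons 12.8% were lower and 4.18% higher in siSNRPA1, and 16.7% lower and 4.62% higher in siSNRPB. The median differences were 0.01 and -0.11, against -0.02 and -0.01 for all tested exons. RDX, encoding radixin, a linker of actin to the membrane, fell at a 208-nt exon from 0.13 in siCtrl to 0.03 in siSNRPA1 and 0.02 in siSNRPB. A 303-nt exon of FRMD5 fell in siSNRPA1 from 0.28 to 0.15. In siSNRPB a 342-nt exon of FRMD4A fell from 0.66 to 0.18, and a 116-nt exon of NF2, the merlin tumour suppressor, from 0.20 to 0.03. Inclusion and exclusion reads of the FRMD4A exon were 80 and 6 in siCtrl, and 17 and 7 in siSNRPB. Those of the NF2 exon were 10 and 18 in siCtrl, and 0 and 20 in siSNRPB, the fewest that could be tested. Between the knockdowns 1 of 8 exons passed, that of FRMD5, at 0.15 in siSNRPA1 and 0.43 in siSNRPB. The shares over all tested exons were 8.28% higher and 6.38% lower in siSNRPA1. The median difference of the list was 0.06, against 0 for all tested exons. Of the calpains, proteases known to cut alpha-II spectrin, 1 exon could be tested in siSNRPA1 and did not pass.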

How the data were processed

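RNA sequencing libraries of 6 samples were made with a stranded low-input total RNA kit, per the labels' protocols, and the submitters' processing notes name STAR 2.7 and hg38, with no role or order. Per the file headers, the authors deposited for each of 3 pools an inclusion level per skipped-exon event, a fraction that is a posterior mean given to 2 decimals, with an interval whose width is not stated, and other text that lists reads by isoform class. Bounds of that interval are held as a score from 0 to 1. Per the file headers, 2 comparison tables hold the inclusion difference of a knockdown from siCtrl, a score between -1 and 1, and a Bayes factor, a ratio of evidence. The column names are those of MISO. Its version, the strand setting of the counting and the way libraries were pooled were not given in the sources used here. Columns of per-sample values left unused numbered 0.

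Informative reads summed over all listed events were 5707839 in siCtrl, 7831446 in siSNRPA1 and 3396043 in siSNRPB, where events can share a read. Their median was 16, 20 and 13 per event, so small differences were often not detectable. Among the 52 exons a median of 65.5%, 60.3% and 58.6% of reads fitted neither isoform. An exon in several events was represented by the event with the highest sum of informative reads, and neighbouring exons can share exclusion reads. Named were all passing exons and up to 3 other tested exons per gene, the best covered, and up to 3 passing exons per list; further exons were chosen after their values were seen. The members and gene lists were chosen with earlier results of these data known. The labels do not say whether libraries came from separate cultures. The value of 1 marker gene is not reported here. The procedure was tested on simulated data. Alternatives were the read minimum, the level difference, the measure of inclusion, the choice of event, thinned and divided reads, and the Bayes factor rule. Python 3.11.15, scipy 1.17.1, numpy 2.4.6, pandas 2.3.3 and matplotlib 3.10.9 were used.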

Additional observations from a re-analysis of the deposited data

How the results depend on the processing

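In siSNRPA1 against siCtrl the 3 passing exons became 1 at a minimum difference of 0.2 and 1 with read counts divided by 2. By the cut on the authors' Bayes factor they became 6. Over all tested exons the calls were 1097 of 6459 in the main run, 554 of 6459 at 0.2 and 291 of 3587 with divided reads. In siSNRPB against siCtrl the 4 became 2 at a minimum difference of 0.2 and 9 by the Bayes factor cut. There the calls over all tested exons were 903 of 4244 in the main run and 512 of 4244 at 0.2. Between the knockdowns the 3 stayed between 2 and 4 under the alternatives run. The calls over all tested exons there were 745 of 5082 in the main run and 420 of 5082 at 0.2. They were 205 of 2697 with divided reads and 991 of 5621 with skip junctions summed. The remaining alternatives left each count of passing exons within 1.5 times its main value. A kept count can hide a change of exons. With skip junctions summed, 3 of 13 tested exons rose and 0 fell in siSNRPA1, where 1373 of all 7108 tested exons were called. Of the main passing exons only the EPB41L2 63-nt exon was kept, and the EPB41 63-nt and EPB41L1 411-nt exons were new. The EPB41L1 191-nt exon in siSNRPA1 could not be tested at 50 informative reads or with thinned or divided reads. Over 24 pairs of a tested exon and a comparison, 193 alternative values were computed. Of these, 162 kept direction and call, 10 passed where the main value did not, 16 kept direction but did not pass, and 5 changed sign. The 5 were the EPB41 57-nt exon in siSNRPA1 (-0.05, and 0.14 with both forms of summed skip junctions), the EPB41 42-nt exon in siSNRPA1 (0.01, and -0.02 as a read share), and the EPB41L1 191-nt exon. The last had 0.05 in siSNRPA1 with another event and -0.09 in siSNRPB as a read share. The causes were not tested. Summed junctions were added after the values were seen. No paired analysis was possible because each group has 1 deposited set of values and its columns carry no replicate numbers, and for the same reason no replicate could be left out. The 42 exons tested in no comparison lacked informative reads in a pool or reads of 1 class, and well covered exons with no exclusion read were among them.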
